A study of Mus musculus with 6 samples.

Results

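The interferon-inducible p200 family, also called the Ifi200 or HIN-200 family, is a cluster of genes on mouse chromosome 1. Its members were taken by name, as the chromosome 1 genes Ifi203, Ifi204, Ifi205, Ifi207, Ifi209, Ifi211, Ifi213, Mnda, Mndal and Aim2. No measured value enters this rule, but the list was drawn up with earlier results of these data known. Of these 10 genes, 9 were found by symbol among the 24965 genes of the FPKM table, where FPKM is the number of fragments per kilobase of exon and per 1000000 fragments. Mnda matched no gene symbol of the annotation and is not analysed here under that name, which RefSeq lists only as a synonym of Ifi211, 1 of the 9. Of the 9 members, 8 passed the filter of FPKM above 1 in at least 1 library and were tested, and all 8 exceeded 1 FPKM in every library. Ifi205 stayed below 1 FPKM in every library and is described by its values.

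Donor hematopoietic stem and progenitor cells (HSPCs) were recovered from irradiated recipient mice at 6 h after bone marrow transplantation (BMT), with 3 WT and 3 Hemgn-/- libraries. The donors were CD45.2+ mice on the C57BL/6 background aged 8 to 10 weeks, either Hemgn-/- mice, a whole-body knock-out made with zinc finger nucleases, or WT littermates. In both groups, 20000000 donor bone marrow cells were given to CD45.1+ recipients after a split dose of 9 Gy, so irradiated hosts and transplantation were common to all 6 libraries and no untransplanted cells were compared. The sample labels describe the sorted cells as CD45.2+ Lin- Sca-1+, whereas the series description adds c-Kit+. Because the knock-out is present in every cell of the donors, the compared cells had also developed with it.

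Most proteins of the family carry a HIN domain, which binds DNA, or an N-terminal pyrin domain, or both, and the pyrin domain is the part through which proteins of inflammatory complexes pair with each other. Type I and type II interferons raise their transcription, and the family is known from myeloid and lymphoid cells, where Aim2 senses cytosolic DNA and builds an inflammasome with the adaptor Pycard (ASC) and caspase-1. The genes arose by repeated duplication and differ between inbred mouse strains, so members share long stretches of sequence, and reads of one member can be assigned to another.

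The promoters of the members are shown because the family is named as interferon-inducible, and because they show how far the copies are alike. RefSeq promoter windows (GRCm38.p6, 250 bases before to 50 bases after a start) were at hand for 8 of the 9 members, Ifi204 being the exception. The letters GAAA, any 2 bases and GAAA again, the core of the interferon-stimulated response element (ISRE), were searched on both strands. They occurred in windows of 6 of these 8 members, against 3.993% of the 27025 genes with windows of this length. Several of these windows are near copies of each other, so the members do not count as independent promoters. Ifi205 and Ifi211 were 93.5% identical over 201 aligned bases, and Ifi207 and Ifi211 88.0% over 291. For each of these 6 members the stretch from 150 bases before to 30 bases after a start is given below, 5′ to 3′ in the direction of transcription, with the ISRE core in capitals. For Ifi203 and Mndal, which have 2 windows each, the window printed is the one that aligned best with that of the other gene.

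Ifi203, chr1:173942463-173942642, minus strand: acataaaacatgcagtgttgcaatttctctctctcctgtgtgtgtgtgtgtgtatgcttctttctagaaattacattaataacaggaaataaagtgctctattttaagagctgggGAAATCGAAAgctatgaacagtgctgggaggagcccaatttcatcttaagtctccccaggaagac
Mndal, chr1:173880158-173880337, minus strand: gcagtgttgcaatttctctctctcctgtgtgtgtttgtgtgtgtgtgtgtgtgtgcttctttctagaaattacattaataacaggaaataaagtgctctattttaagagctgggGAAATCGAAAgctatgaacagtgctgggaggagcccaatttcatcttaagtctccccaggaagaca
Ifi211, chr1:173913017-173913196, minus strand: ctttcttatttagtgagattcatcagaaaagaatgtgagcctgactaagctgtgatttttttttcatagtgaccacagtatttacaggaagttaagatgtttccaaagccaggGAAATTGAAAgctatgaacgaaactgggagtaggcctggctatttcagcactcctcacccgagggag
Ifi207, chr1:173741780-173741959, minus strand: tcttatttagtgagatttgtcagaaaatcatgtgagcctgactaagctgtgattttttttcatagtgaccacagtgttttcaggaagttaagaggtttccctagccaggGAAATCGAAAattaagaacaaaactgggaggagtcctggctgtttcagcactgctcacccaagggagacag
Ifi205, chr1:174031726-174031905, minus strand: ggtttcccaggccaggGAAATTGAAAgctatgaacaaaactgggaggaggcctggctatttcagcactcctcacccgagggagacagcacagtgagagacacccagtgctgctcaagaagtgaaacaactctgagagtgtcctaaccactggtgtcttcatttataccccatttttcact
Ifi213, chr1:173599243-173599422, minus strand: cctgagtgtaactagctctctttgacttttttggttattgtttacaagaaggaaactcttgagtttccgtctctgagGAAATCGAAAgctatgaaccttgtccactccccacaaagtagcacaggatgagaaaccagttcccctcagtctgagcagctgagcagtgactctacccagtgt

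In the stretches shown for Ifi203, Mndal, Ifi207 and Ifi213 the match read GAAATCGAAA, and in Ifi205 and Ifi211 it read GAAATTGAAA. These exact spellings were chosen after the windows had been read. GAAATCGAAA occurred in the windows of 16 genes of 27025, and 7 of these 16 lay in the p200 locus (Ifi203, Ifi206, Ifi207, Ifi208, Ifi213, Ifi214 and Mndal). These 7 are not independent either, since the windows of Ifi206, Ifi208 and Ifi213 were 98.5 to 98.9% identical where they aligned. Measured from the start, the match began at base -35 in Ifi203, -36 in Mndal, -37 in Ifi211, -41 in Ifi207, -73 in Ifi213 and -134 in Ifi205. Ifi205 held another match at +24, which runs past the end of the stretch shown. The printed windows of Ifi203 and Mndal were 94.3% identical over 299 aligned bases.

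Aim2 and Ifi209 held no match in their windows. The Ifi209 window was 95.7% identical to that of Ifi214, a neighbouring p200 gene that is not among the listed members. Both are set side by side because 1 of their several differences falls on the motif. Where Ifi214 has its match, Ifi209 differs by the single substitution G1T, counted from the first base of the motif.

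Ifi214, chr1:173535928-173536107, minus strand: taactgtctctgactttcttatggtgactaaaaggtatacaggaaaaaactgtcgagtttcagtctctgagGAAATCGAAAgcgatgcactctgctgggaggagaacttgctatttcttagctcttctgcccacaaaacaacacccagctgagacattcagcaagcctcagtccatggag
Ifi209, chr1:173630709-173630888, plus strand: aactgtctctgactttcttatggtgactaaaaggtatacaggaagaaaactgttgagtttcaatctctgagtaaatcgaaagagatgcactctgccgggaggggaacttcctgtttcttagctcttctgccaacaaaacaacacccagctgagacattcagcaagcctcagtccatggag

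The letters TTCNNNGAA, the core of the gamma-activated site (GAS), were in none of the 8 members' windows on either strand, and in those of 9.554% of all genes. The absence of these letters concerns the 300 bases searched and nothing beyond them.

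Reads of 150 bases are long enough to separate most members, and Ifi211 is the exception. In the GENCODE M21 transcripts, every window of 150 bases of Aim2 and Ifi207 was unique to the gene. The share of windows also found in another gene was 0.2% for Ifi213, 0.8% for Ifi203, 1.6% for Mndal, 6.8% for Ifi204 and 9.3% for Ifi209. For Ifi205 the share was 12.6%, with Ifi211 the main partner. For Ifi211 it was 46.4%, and 32.3% of its windows occurred in Ifi205. With windows of 75 bases the share for Ifi211 was 63.6%, and that for Ifi209 was 23.1%. How the submitters treated reads that match several genes is not given in the sources used here. Among the members, Ifi211 has the largest share of sequence open to this. Ifi205 is open to it as well, since it had 22 to 113 fragments a library beside 262 to 553 for Ifi211.

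**Figure D1:**
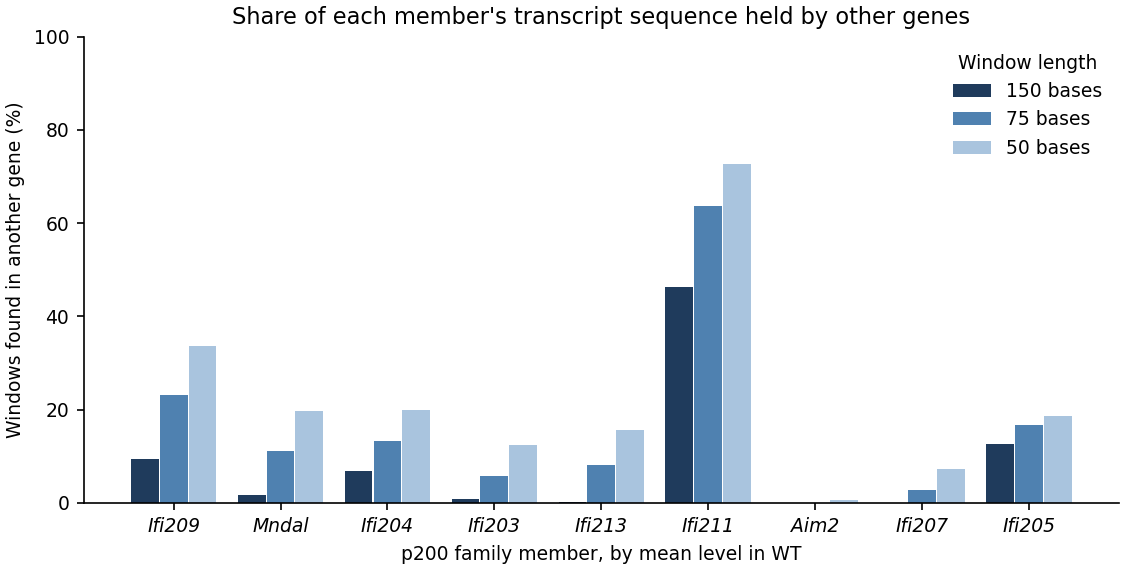
Share of windows of 150, 75 and 50 bases (y axis, percent) of each member's transcripts that occur exactly in a transcript of another gene, with members ordered by their mean FPKM in WT. Ifi211 stands at 46.4% with windows of 150 bases, whereas Aim2 and Ifi207 are at 0%.

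The sharing has a few named sources. The longest identical run between the coding sequences of Ifi211 and Ifi205 was 495 bases, and between those of Ifi211 and Ifi204 it was 223 bases. The start of the run shared by Ifi211 and Ifi205 is printed to show a stretch as long as a read that cannot be placed (the first 150 of its bases, from base 612 of the Ifi211 coding sequence).

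Ifi211 and Ifi205, shared run: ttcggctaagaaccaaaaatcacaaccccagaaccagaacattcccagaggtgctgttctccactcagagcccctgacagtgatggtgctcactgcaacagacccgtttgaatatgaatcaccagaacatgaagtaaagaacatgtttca

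The coding sequences of Ifi204 and Ifi211 were 96.8% identical over 1234 aligned bases. The listed member Ifi209 and the non-member Ifi214 were 97.1% identical over 1182 bases, and their longest identical run was 253 bases. Ifi213 and the non-member Ifi208 were 96.5% identical over 1767 bases. Mndal and Ifi203 overlap on the same strand by 37 exon bases. Aim2 has no such near copy in the locus. The coding sequences of the 9 members predict proteins of 354 (Aim2) to 978 (Ifi207) amino acids.

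The 6 libraries held 23668015 to 28897360 fragments, as worked out from the spacing of small FPKM values. Over all genes tested by limma with Benjamini-Hochberg adjustment, 600 of 13739 were higher and 287 lower in Hemgn-/- at an adjusted p under 0.05, and the median log2 fold change was 0.09. This balance depends on scaling, since median-ratio scaling gave 341 higher and 386 lower and rescaling to the same FPKM total gave 1062 and 238. Hemgn itself, the targeted gene, was at 5.64, 2.96 and 4.68 FPKM in WT and 0.755, 0.913 and 1.60 FPKM in Hemgn-/- (log2 fold change -1.37 ± 0.23 SE, adjusted p = 0.0114 by limma). Transcript thus remained detectable in all 3 Hemgn-/- libraries. The paper describes the mutant allele as a short deletion with a premature stop codon, and reports no HEMGN protein by western blot. Genes of neutrophil granules were abundant in these sorted cells, and the 8 examined took 9.17 to 9.89% of the fragments in WT and 5.72 to 5.85% in Hemgn-/- libraries.

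Levels of the members spanned a wide range and kept nearly one order in both genotypes. In WT, Ifi209 was the highest member at 39.6 ± 1.05 FPKM (SD, n = 3), followed by Mndal at 24.6 ± 2.77, Ifi204 at 14.1 ± 0.987 and Ifi203 at 11.5 ± 0.988. Ifi213 (6.88 ± 1.15), Ifi211 (6.33 ± 0.577) and Aim2 (5.35 ± 1.03) followed as a group within which neighbours overlapped in range. Ifi207 (2.71 ± 0.675) and Ifi205 (0.239 ± 0.0560) were the lowest. In Hemgn-/- libraries the order was the same except that Ifi211 (10.5 ± 0.538) stood above Ifi213 (9.79 ± 0.539), and these neighbours overlapped in range there too. All other neighbours in Hemgn-/- were separate in range.

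**Figure D2:**
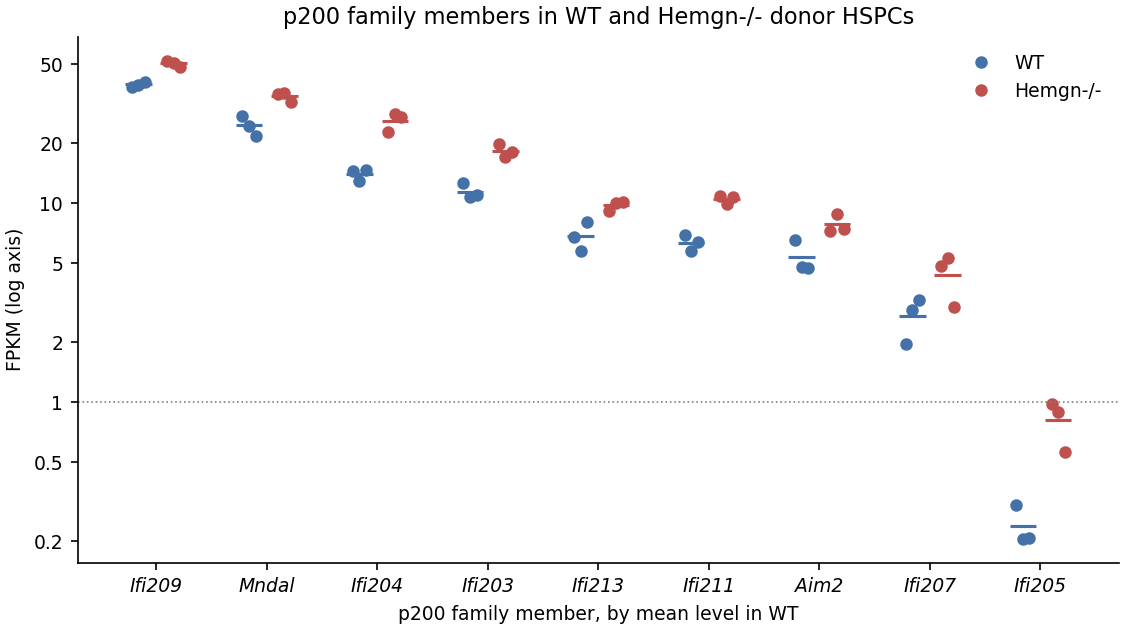
FPKM (log axis) of the 9 members in the 3 WT (blue) and 3 Hemgn-/- (red) libraries, with each point a library, each short line a group mean and the dotted line the filter at 1 FPKM. The 3 Hemgn-/- libraries lie above the 3 WT libraries for every member except Ifi207, where Hemgn-/- replicate 3 falls among the WT values.

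The question asked of these data was whether the family was changed in Hemgn-/- donor cells. Of the 8 members tested, 5 were higher in Hemgn-/- at an adjusted p under 0.05 (Ifi203, Ifi204, Ifi209, Ifi211 and Mndal), where 4.37% of all genes tested were. No member was called lower by limma or by voom on recovered fragments, and no member was lower at an unadjusted p under 0.05 either, whereas all 8 were higher at that level (15% of all genes). All 8 fold changes were positive, as were 63% of those of all genes. In 7 of the 8 tested members every Hemgn-/- library lay above every WT library, which held for 19.2% of all genes tested. The median log2 fold change of the 8 members was 0.50, beside 0.09 for all genes. With an unadjusted p under 0.05 and a 1.5-fold change or more in FPKM + 1, 3 members were higher, and 4.1% of all genes were. With the 1.5-fold change taken on mean FPKM instead, a rule added after seeing the data, 4 members were higher (Ifi203, Ifi204, Ifi207 and Ifi211), and 6.03% of all genes were. With 3 libraries in each group an exact two-sided permutation test of 1 gene cannot give a p below 0.1, so the calls rest on the spread that limma shares across genes. In bulk libraries a change in the number of cells that carry a transcript and a change in transcript per cell cannot be told apart.

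**Figure D3:**
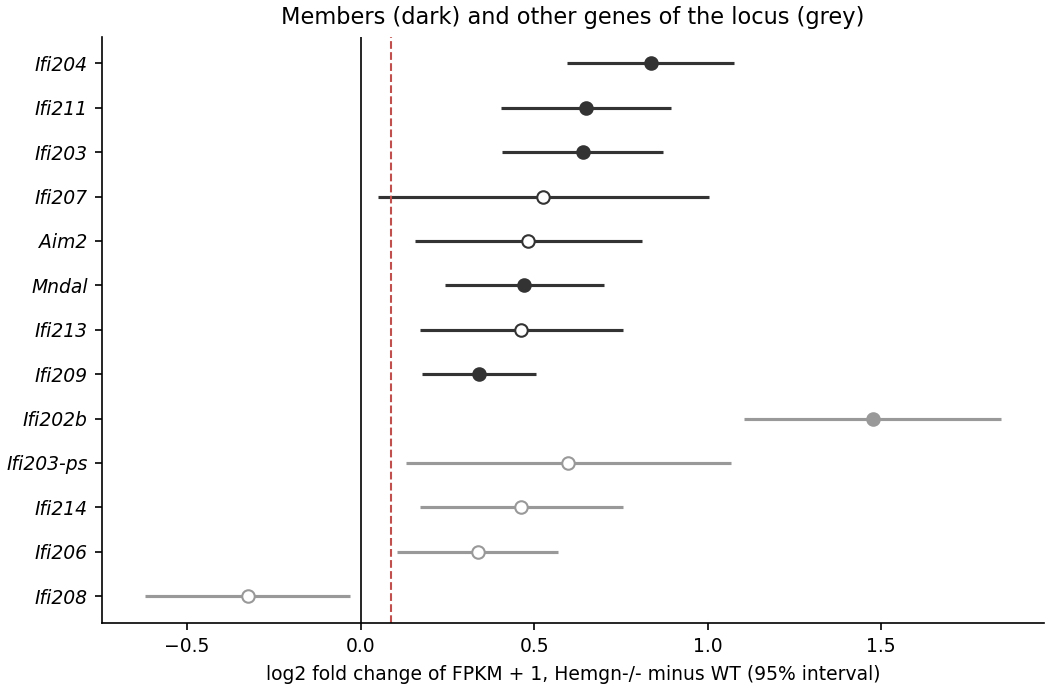
Log2 fold change of FPKM + 1 (Hemgn-/- minus WT, x axis) with its 95% interval for the 8 members tested (dark) and for 5 other genes of the locus (grey). Filled points have an adjusted p under 0.05, and the dashed red line is the median of all genes tested (0.09). All 8 members lie to the right of 0, from 0.34 (Ifi209) to 0.84 (Ifi204), and of the other locus genes shown Ifi208 lies to the left. The tested miRNA genes Gm44481 (-0.52) and Gm44339 (-0.33) are not shown.

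Ifi204 had the largest fold change among the members tested. Its protein p204 binds the retinoblastoma protein and the ribosomal RNA transcription factor UBTF, and it lies at chr1:173747293-173766943 (GRCm38). It was at 14.6, 13.0 and 14.8 FPKM in WT and 22.8, 28.1 and 27.1 FPKM in Hemgn-/- replicates 1 to 3. The lowest Hemgn-/- library was thus well above the highest WT library. The log2 fold change was 0.84 ± 0.11 (SE, adjusted p = 0.0033 by limma), and the call was kept in all 16 alternative fits, with adjusted p-values up to 0.0268.

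Ifi211, which shares the most sequence with other members, lies at chr1:173896345-173913046. It was at 6.89, 5.74 and 6.37 FPKM in WT and 10.9, 9.87 and 10.7 FPKM in Hemgn-/- libraries. Its ranges were separate, and replicate 2 was the lowest of each group. The log2 fold change was 0.65 ± 0.11 (SE, adjusted p = 0.010 by limma), and the call was lost in 1 of 16 alternatives, without Hemgn-/- replicate 3 (adjusted p = 0.0519).

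Ifi205, its partner in sequence at chr1:174011998-174031810, was found in few fragments, 30, 22 and 24 in WT and 113, 98 and 68 in Hemgn-/- libraries. These correspond to 0.303, 0.206 and 0.207 FPKM in WT and 0.986, 0.896 and 0.563 FPKM in Hemgn-/- libraries. The ranges did not overlap, and every value was below the filter. Some of these fragments may belong to Ifi211, which was not tested. When the filter was lowered to any FPKM above 0, the log2(FPKM + 1) difference was 0.54 ± 0.14 (SE, adjusted p = 0.133 by limma). In voom on genes with at least 10 fragments in 3 libraries, an alternative chosen after its low values were seen, its log2 fold change was 1.74 ± 0.50 (SE) with an adjusted p of 0.0685.

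Ifi203 and Mndal have starts that lie in near-identical sequence, as the printed stretches show. Ifi203, at chr1:173920407-173942672, was at 12.6, 10.8 and 11.0 FPKM in WT and 19.9, 17.2 and 18.1 FPKM in Hemgn-/- libraries. The groups were separate, with replicate 1 the highest in each. Its log2 fold change was 0.64 ± 0.10 (SE, adjusted p = 0.0086 by limma), and the call was kept in all 16 alternatives, with adjusted p-values up to 0.0418.

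Mndal, named for its likeness to the myeloid nuclear differentiation antigen, is annotated at chr1:173849126-173942491. This span holds the whole of Ifi211 and most of Ifi203 on the same strand. The Mndal start printed above lies inside the span and not at its annotated end. It was at 27.4, 24.6 and 21.9 FPKM in WT and 35.3, 35.8 and 32.2 FPKM in Hemgn-/- libraries. The ranges were again separate. The difference on the log2 scale was 0.47 ± 0.10 (SE, adjusted p = 0.0285 by limma). This call was lost in 9 of 16 alternatives, among them median-ratio scaling (adjusted p = 0.0752) and the fits without any 1 library other than WT replicate 1.

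Ifi209, at chr1:173630917-173647928, was the highest of the members and had the smallest fold change of those tested. It was at 38.6, 39.5 and 40.7 FPKM in WT and 52.1, 50.8 and 48.3 FPKM in Hemgn-/- libraries. The spread within each group was small and the ranges were separate. This amounts to a log2 fold change of 0.34 ± 0.07 (SE, adjusted p = 0.0280 by limma). The call was lost in 10 of 16 alternatives, including each of the 6 fits without 1 library (adjusted p = 0.0590 to 0.0981) and median-ratio scaling, where the log2 fold change was 0.24 (adjusted p = 0.116).

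Aim2, the DNA sensor of the inflammasome, lies at the other end of the cluster at chr1:173350879-173466040. It was at 6.54, 4.77 and 4.74 FPKM in WT and 7.24, 8.82 and 7.42 FPKM in Hemgn-/- libraries. WT replicate 1 came close to the lowest Hemgn-/- library, and the ranges did not overlap. The log2 fold change of 0.48 ± 0.14 (SE) did not pass the threshold (adjusted p = 0.0909 by limma), and it passed in 1 of 16 alternatives, with the same FPKM total in all libraries (adjusted p = 0.0424).

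Ifi213, at chr1:173566283-173599274, was at 6.79, 5.77 and 8.07 FPKM in WT and 9.17, 10.1 and 10.1 FPKM in Hemgn-/- libraries. The ranges did not overlap, and WT varied more than Hemgn-/-. The log2 fold change was 0.46 ± 0.13 (SE) with an adjusted p of 0.0733 by limma, which fell under the threshold in 3 of 16 alternatives.

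Ifi207, at chr1:173723427-173741747, encodes the longest of the 9 predicted proteins. It was at 1.96, 2.91 and 3.27 FPKM in WT and 4.83, 5.29 and 3.02 FPKM in Hemgn-/- libraries. It was the only member whose groups overlapped, since Hemgn-/- replicate 3 was below WT replicate 3. The log2 fold change was 0.53 ± 0.21 (SE, adjusted p = 0.193 by limma), with a 95% interval from 0.05 to 1.00, and it passed in none of 16 alternatives.

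**Figure D4:**
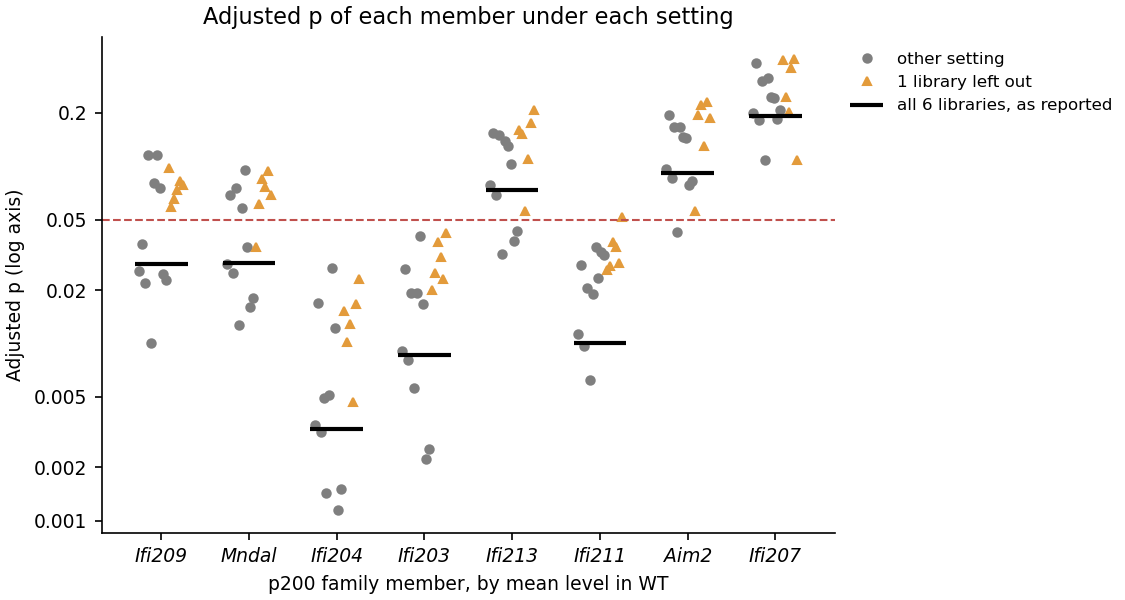
Adjusted p (log axis) of the 8 members tested with all 6 libraries (black line), in the fits without 1 library (triangles) and under the other settings (circles), with the dashed red line at 0.05. Ifi203 and Ifi204 stay below the line throughout, Ifi211 crosses it without Hemgn-/- replicate 3, and Mndal and Ifi209 fall on both sides.

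Fragments were then summed over copies, so that a read moved from one copy to another inside a sum does not count. Summed over the 9 members, the libraries held 462, 425 and 445 fragments per 1000000 in WT and 656, 665 and 633 in Hemgn-/-, which is a ratio of means of 1.47. Summed over the 19 genes of the locus that are in the table, they held 595, 572 and 585 in WT and 872, 841 and 827 in Hemgn-/-, a ratio of 1.45. Neither pair of groups overlapped. Member by member, the ratio of mean fragments per 1000000 ran from 1.27 (Ifi209) to 3.41 (Ifi205), with a median of 1.61. The ratio of Ifi205 rests on few fragments, some of which may belong to Ifi211.

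Sums over the closest copies differed from each other. Ifi204, Ifi205 and Ifi211 together held 65.5, 57.3 and 64.8 fragments per 1000000 in WT and 105, 121 and 118 in Hemgn-/- libraries, a ratio of 1.84. Ifi203 and Mndal together held 184, 161 and 153 in WT and 262, 245 and 238 in Hemgn-/- libraries, a ratio of 1.49. For both sums the groups were separate.

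Ifi209 with its near copy Ifi214 held 159, 168 and 170 fragments per 1000000 in WT and 222, 215 and 212 in Hemgn-/- libraries, a ratio of 1.31 with no overlap. Ifi213 with its near copy Ifi208 held 95.7, 88.0 and 107 in WT and 110, 103 and 105 in Hemgn-/- libraries. Here the groups overlapped and the ratio was 1.09. Only 0.2% of the windows of 150 bases of Ifi213 occurred in Ifi208, and 6.7% of those of 75 bases. Ifi208 had lower values in Hemgn-/- libraries, so this sum adds genes that moved in opposite directions. These sums are values with no test.

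**Figure D5:**
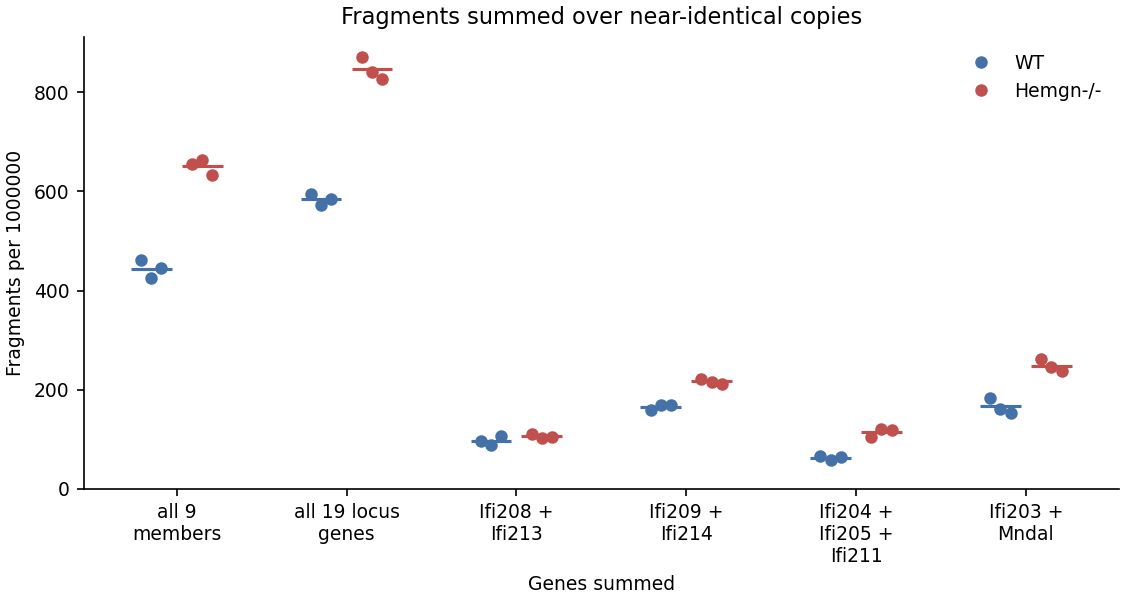
Fragments per 1000000 (y axis, from 0) summed over the 9 members, over the 19 genes of the locus in the table, and over 4 sets of close copies, in 3 WT (blue) and 3 Hemgn-/- (red) libraries, with a short line at each group mean. The groups are separate in every sum except Ifi208 + Ifi213.

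The locus between the outer ends of Aim2 and Ifi205 spans 680932 bases (chr1:173350879-174031810) and holds 10 further genes of the table that are not listed members. Of these, 7 were tested and 1 was called, higher in Hemgn-/-. Of all genes tested, 4.37% were called higher and 2.09% lower. The gene called was Ifi202b, whose protein has HIN domains but no pyrin domain and is known as an inhibitor of Aim2. It was at 9.04, 14.0 and 13.3 FPKM in WT and 39.9, 31.1 and 34.2 FPKM in Hemgn-/- libraries. Its ranges lay far apart. On the log2 scale the fold change was 1.48 ± 0.16 (SE, adjusted p = 0.0019 by limma), and the call was kept in all 16 alternatives, with none of its windows of 150 bases in another gene.

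Ifi206 averaged 12.4 ± 0.503 FPKM across WT and 15.9 ± 1.58 FPKM across Hemgn-/- libraries (SD, n = 3), with a log2 fold change of 0.34 (adjusted p = 0.0943 by limma). Ifi214 averaged 3.13 ± 0.351 and 4.68 ± 0.378 FPKM, which is a log2 fold change of 0.46 (adjusted p = 0.0733). Ifi208, the near copy of Ifi213, was the one protein-coding gene of the locus with lower values in Hemgn-/- libraries. It was at 9.37, 9.23 and 9.81 FPKM in WT and 8.98, 6.47 and 6.81 FPKM in Hemgn-/- libraries. The ranges did not overlap. Its log2 fold change of -0.33 ± 0.13 (SE) did not pass the threshold (unadjusted p = 0.0342, adjusted p = 0.193 by limma). Ifi214 and Ifi208 are named here for their likeness to members. The pseudogene Ifi203-ps had a log2 fold change of 0.60 (adjusted p = 0.135). The 2 annotated miRNA genes inside the locus had 0 to 18 fragments per library. Their log2 fold changes were -0.52 (Gm44481, adjusted p = 0.342 by limma) and -0.33 (Gm44339, adjusted p = 0.669). Of the 7 tested genes of the locus that are not members, 4 had a fold change above 0.

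Genes that work with the family were then read from lists. The list of DNA sensing and inflammasome genes holds 20 genes, of which 18 were tested, and 4 were called higher and 1 lower in Hemgn-/- (4.37% and 2.09% of all genes tested), with a median log2 fold change of 0.18. The 4 were Irf3, a transcription factor downstream of cytosolic DNA (0.46), Zbp1, a sensor of Z-form nucleic acid (0.55), Casp4, the caspase of the non-canonical inflammasome (0.58), and the cytokine Il1b (0.61). Cgas, the enzyme that senses cytosolic DNA, was the gene called lower, with 2.60 ± 0.283 FPKM across WT and 1.23 ± 0.248 FPKM across Hemgn-/- libraries (log2 fold change -0.69, adjusted p = 0.0415 by limma). The direct partners of Aim2 did not pass the threshold. Pycard averaged 3.49 ± 0.794 and 3.13 ± 0.649 FPKM (adjusted p = 0.756), and Casp1 averaged 31.9 ± 2.70 and 37.8 ± 2.13 FPKM (adjusted p = 0.174). Without Hemgn-/- replicate 3 no gene of this list was called.

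Of the 16 genes on the interferon signalling list, all were tested and 5 were called higher, where 4.37% of all genes tested were, with a median log2 fold change of 0.29. The count was 2 without Hemgn-/- replicate 3 and 2 with eBayes without a trend. The 5 were the receptor chains Ifnar1 (0.45) and Ifngr2 (0.45), the transcription factors Irf1 (0.75) and Irf8 (0.75), and Usp18, a feedback inhibitor of the type I receptor (0.69). No gene of the list was called lower by limma or voom, and none was lower at an unadjusted p under 0.05. Irf8 was at 39.7, 39.4 and 38.5 FPKM in WT and 64.6, 68.1 and 67.4 FPKM in Hemgn-/- libraries (adjusted p = 0.000657 by limma), so the groups lay far apart.

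Of 6 genes whose proteins are known partners or targets of p204, all were tested and 1, Id3, was called, higher (4.37% of all genes were called higher and 2.09% lower). Id3 averaged 25.5 ± 1.65 FPKM across WT and 34.6 ± 2.68 FPKM across Hemgn-/- libraries (log2 fold change 0.43, adjusted p = 0.0296 by limma). It lost the call in all fits without 1 library except the fit without Hemgn-/- replicate 1. The partners Rb1 (3.28 ± 0.592 and 2.85 ± 0.826 FPKM, adjusted p = 0.654 by limma) and Ubtf (11.5 ± 0.812 and 12.7 ± 1.08 FPKM, adjusted p = 0.524) were not called. With median-ratio scaling Id3 was not called (adjusted p = 0.0759) and Id1 was called lower (adjusted p = 0.0313). Id1 averaged 45.6 ± 3.91 and 33.0 ± 5.14 FPKM, a log2 fold change of -0.47 (adjusted p = 0.0639), and Id2 at 94.0 ± 9.84 and 89.8 ± 2.78 FPKM (adjusted p = 0.731). The median log2 fold change of the 6 genes was 0.03.

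Transcripts that mark other blood cells differed between the groups too, and these counts stand beside 4.37% of all genes called higher and 2.09% called lower. Of 7 B cell genes 4 were called higher in Hemgn-/-, and their summed level was 1187 to 1248 FPKM in WT and 1416 to 1591 FPKM in Hemgn-/- libraries. Of 7 T and NK cell genes 3 were higher (summed 121 to 131 against 145 to 174 FPKM), and of 6 plasmacytoid dendritic cell genes 2 were higher (146 to 173 against 164 to 200 FPKM). Of 9 monocyte and macrophage genes tested, 2 were higher and 1 was lower (624 to 650 against 541 to 647 FPKM).

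Genes of neutrophil granules and of erythroid cells included lower calls. Of 8 neutrophil genes 5 were lower (summed 58448 to 62702 against 35663 to 37154 FPKM), and of 6 erythroid genes 4 were lower (450 to 540 against 25.4 to 41.0 FPKM). Of 5 conventional dendritic cell genes 3 were tested and 0 were called. Of these 3, only Itgax had a fold change above 0, and the median log2 fold change was -0.01. The sums were 3.69 to 5.09 and 4.91 to 6.40 FPKM, while Itgax averaged 2.41 and 3.66 FPKM. Xcr1 and Zbtb46, 2 of the 5 genes, stayed under 1 FPKM. Of 9 HSPC genes tested, Cd34 was higher and 0 were lower (summed 35.9 to 41.8 against 43.2 to 51.7 FPKM). The median log2 fold change of these 9 genes was 0.36, beside 0.09 for all genes. Of the 9 fold changes 5 were above 0, as were 63% of those of all genes. Kit (-0.18), Hlf (-0.15), Gata2 (-0.10) and Procr (-0.08) were below 0 and were not called. No marker on these lists was at 0 in all 6 libraries. The part of these cell types in the values of the p200 genes was not tested.

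The mean profile of the 8 tested members over the 6 libraries, in log2(FPKM + 1) centred for each gene, was -0.23, -0.34 and -0.25 in WT and 0.28, 0.33 and 0.21 in Hemgn-/- replicates 1 to 3. Among 6284 other genes with a mean of at least 5 FPKM, the 5 with the highest Pearson correlation to it over the 6 libraries were Cstf3 (0.999), Ltb (0.997), Ms4a4c (0.995), Eif4b (0.995) and Slc7a11 (0.995). With 2 groups of 3 libraries such a correlation mainly reflects the difference between the groups, and it is a description. It takes no account of the size of the change. Ms4a4c averaged 48.7 ± 4.06 FPKM across WT and 87.9 ± 3.11 FPKM across Hemgn-/- libraries (SD, n = 3). Cstf3, the closest match, averaged only 6.95 ± 0.127 and 8.15 ± 0.0976 FPKM and was not called (adjusted p = 0.268 by limma).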

How the data were processed

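RNA-seq libraries of 3 WT and 3 Hemgn-/- samples, described as biological replicates, were grouped by the genotype in the labels. The authors deposited FPKM values per gene, and the values give no sign of any other scaling. The submitters' processing notes name Bowtie2 2.2.3, HISAT2 2.1.0, TopHat2, HTSeq 0.6.0 and the build GRCm38, without roles, and the annotation is not given in the sources used here. The sources name TruSeq in one place and Smart-Seq2 in another. Of 24965 Ensembl identifiers, 24921 matched GENCODE M21, which gave symbols, coordinates and exon lengths. Depth was recovered from FPKM steps, and 95.7% of the 13484 genes that never exceed 100 fragments gave whole numbers in all 6 libraries (tolerance 0.05). A single fragment on 1 kb of exon is worth 0.0346 to 0.0423 FPKM. Fragments of amplified cDNA are not independent molecules.

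A gene was tested if 1 or more libraries exceeded 1 FPKM. Tests used log2(FPKM + 1) and limma 3.58.1 (R 4.3.3; lmFit then eBayes, trend on) over all 6 libraries without covariates, and were tested on simulated data. P-values are two-sided and were adjusted by the Benjamini-Hochberg method across every gene in the fit. Fold changes on this scale understate changes of low genes. Windows were taken from annotated transcripts on either strand, in place of the planned unions of exons, and identities from local alignment with Biopython 1.88. No protein alignment was made.

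The members, gene lists and naming rule were chosen with earlier results of these data known. Named were every member, genes of each list with an adjusted p under 0.05, the 3 highest of a list where fewer than 3 passed, Hemgn, and the 5 genes most like the family profile. Others were named for their sequence or role, and markers are given as counts and sums, with a few named. Alternatives were a pseudocount of 0.1, 2 other filters, 3 scalings, the replicate block, eBayes with its trend off, voom on recovered fragments, other calling thresholds, and leaving out each library. Of the listed genes, 1 is not reported here by name, although it entered the counts and adjustments.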

Additional observations from a re-analysis of the deposited data

How the results depend on the processing

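All 8 members tested kept a positive log2 fold change in all 16 alternative fits. Of 237 fits of single genes of the locus under an alternative, 207 kept direction and call, 20 lost and 9 gained the call, and 1 reversed (the miRNA gene Gm44339, which stood at 0.013 without Hemgn-/- replicate 3 but at -0.85 when Hemgn-/- replicate 1 was left out). The count of members called, 5, was 3 with median-ratio scaling, with quantile normalization, with eBayes without a trend and at p under 0.05 with 1.5-fold, and all calls were higher. Without 1 library it was 2 to 4 (2 without Hemgn-/- replicate 3, 4 without WT replicate 1). The members' median log2 fold change was 0.61 with voom on recovered fragments and 0.66 with voom at 10 fragments in 3 libraries, chosen after seeing the data and taking in Ifi205. Other locus genes called, 1, were 3 with the same FPKM total, 2 with either voom fit or at p under 0.05 with 1.5-fold, and 1 to 2 without 1 library (2 without Hemgn-/- replicate 1).

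Calls on the DNA sensing and inflammasome list, 5, were 9 with the same FPKM total, 2 with FPKM above 0 or at p under 0.05 with 1.5-fold, 1 without a trend, 3 with the replicate block and 0 to 4 without 1 library (0 without Hemgn-/- replicate 3, 2 without WT replicate 1, 3 without WT replicate 3 or Hemgn-/- replicate 1 or 2). Calls on the interferon signalling list, 5, were 10 with the same FPKM total, 8 with either voom fit, 2 without a trend, 3 at p under 0.05 with 1.5-fold and 2 to 5 without 1 library (2 without Hemgn-/- replicate 3, 3 without WT replicate 3). The call on the p204 list was 0 with FPKM above 0, without a trend, with the replicate block and at p under 0.05 with 1.5-fold, and 0 to 1 without 1 library; with median-ratio scaling and quantile normalization the call was Id1, lower, in place of Id3. The share of all genes called, 6.46%, was 1.87% with FPKM above 0, 2.84% without a trend and 2.76 to 5.09% without 1 library. It was 5.29% with median-ratio scaling, 5.2% with quantile normalization, 9.46% with the same FPKM total and 4.63% with the replicate block. With voom on recovered fragments it was 7.76%, with voom at 10 fragments in 3 libraries 6.21%, and at p under 0.05 with 1.5-fold 6.83%. The causes of these changes were not tested. The median share of a member's windows found in other genes was 1.6% at 150 bases, 11.1% at 75 and 18.6% at 50.

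Same-numbered libraries did not deviate together (correlations of -0.0428, -0.0094 and 0.0111 for replicates 1, 2 and 3). The values thus gave no sign that the numbers pair samples, but with 3 libraries in each group they cannot exclude it. With the replicate block 4 members were called, Ifi209 losing its call (adjusted p = 0.0749), and 410 genes were higher and 226 lower. Ifi205 had the fewest fragments of the members, 22 to 113 a library.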
